A study of Solanum lycopersicum with 18 samples.

Results

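A group of 150 genes was higher in *dgt* than in WT roots in the elongation and differentiation zones and moved less in the meristem, out of 29922 genes measured (0.501%). *dgt* carries the dgt1-1 allele of DIAGEOTROPICA, the gene of a cyclophilin A. Cyclophilins are enzymes that change the fold of proteins at prolines, and *dgt* plants respond poorly to auxin and form no lateral roots. Both genotypes were of the Ailsa Craig cultivar of tomato, the mutation is present in every cell, and the seedlings were 7 days old and had germinated on agar medium with sucrose in boxes under long days. Meristems, elongation zones and the differentiation zones above them were dissected by hand from many roots per sample, giving 3 biological replicates of *dgt* and 3 of WT for each zone, 18 libraries in all. The transcript of the mutated gene itself was not analysed here.

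The members were chosen on their measured values. For each zone, L was the log2 of the mean *dgt* TPM plus 1 over the mean WT TPM plus 1. TPM, the deposited unit of level, corrects reads for the length of the transcript and for sequencing depth, and the added 1 shrinks the difference of low genes. The score was the smaller L of the elongation and differentiation zones minus the size of L in the meristem, and the 150 highest scores were taken. Every difference between *dgt* and WT in these genes, calls by edgeR included, is therefore a description and supports nothing. Scores ran to 3.64 at the top. The last genes inside were PDH, LOC101249450 and PSBP (1.33 each), and the first outside were LOC101251722 (1.33), LOC101254946 (1.32) and LOC101262858 (1.32), so the edge of the group is arbitrary.

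Among the members that carry a gene name, the chlorophyll a/b-binding (CAB) genes were the largest family, with 11 of the 16 measured. CAB proteins hold chlorophyll in the thylakoid membrane of the chloroplast and pass absorbed light to the photosystems, where water is split and electrons are set moving. Their genes are strong in leaves and weak in roots, and light and plastid state are known to control them. Other members are known for roles in peroxide and superoxide removal (cat1, FESOD), responses to abscisic acid and water shortage (ASR1, Asr4), protection of proteins in heat (HSP17.8, er-sHSP), peptide signalling (PSK4) and auxin response (ARF5). Of the 150, 118 had only a LOC identifier, 7 of them with a named synonym, so the roles of most members are not given here.

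The label holds for the elongation and differentiation zones and only in part for the meristem. In the elongation zone L lay between 1.39 and 7.39 with a median of 2.53, and in the differentiation zone between 1.49 and 5.47 with a median of 2.47. Over the 19888 genes above 2 TPM in at least 1 group the medians were 0.27 and 0.10. In the meristem the members' L ran from -0.85 to 2.75 with a median of 0.26, against 0.08 for those 19888 genes. It was within 0.5 of 0 for 96 members and within 1 for 128, while all of the 22 others had L over 1. Scaling the libraries by TMM factors shifted the median of the 19888 genes by 0.15, 0.29 and 0.15 in the meristem, elongation and differentiation zones, and put the members' medians at 0.19, 2.31 and 2.34.

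The levels were highest in the elongation and differentiation zones of *dgt*. The median over members of the mean TPM was 1.21 in the *dgt* meristem and 0.488 in the WT meristem. It was 8.99 in the *dgt* elongation zone and 0.322 in WT, and 17.4 in the *dgt* differentiation zone and 1.52 in the WT differentiation zone. A mean above 2 TPM, the level the study used for presence, was reached by 146 members in the *dgt* elongation zone and by 25 in the WT elongation zone. All 150 reached it in the *dgt* differentiation zone and 67 in the WT differentiation zone, while 50 did so in the *dgt* meristem and 32 in the WT meristem. The root zones hold several cell types, and more cells of one type cannot be told apart from more RNA per cell in such tissue samples.

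**Figure D1:**
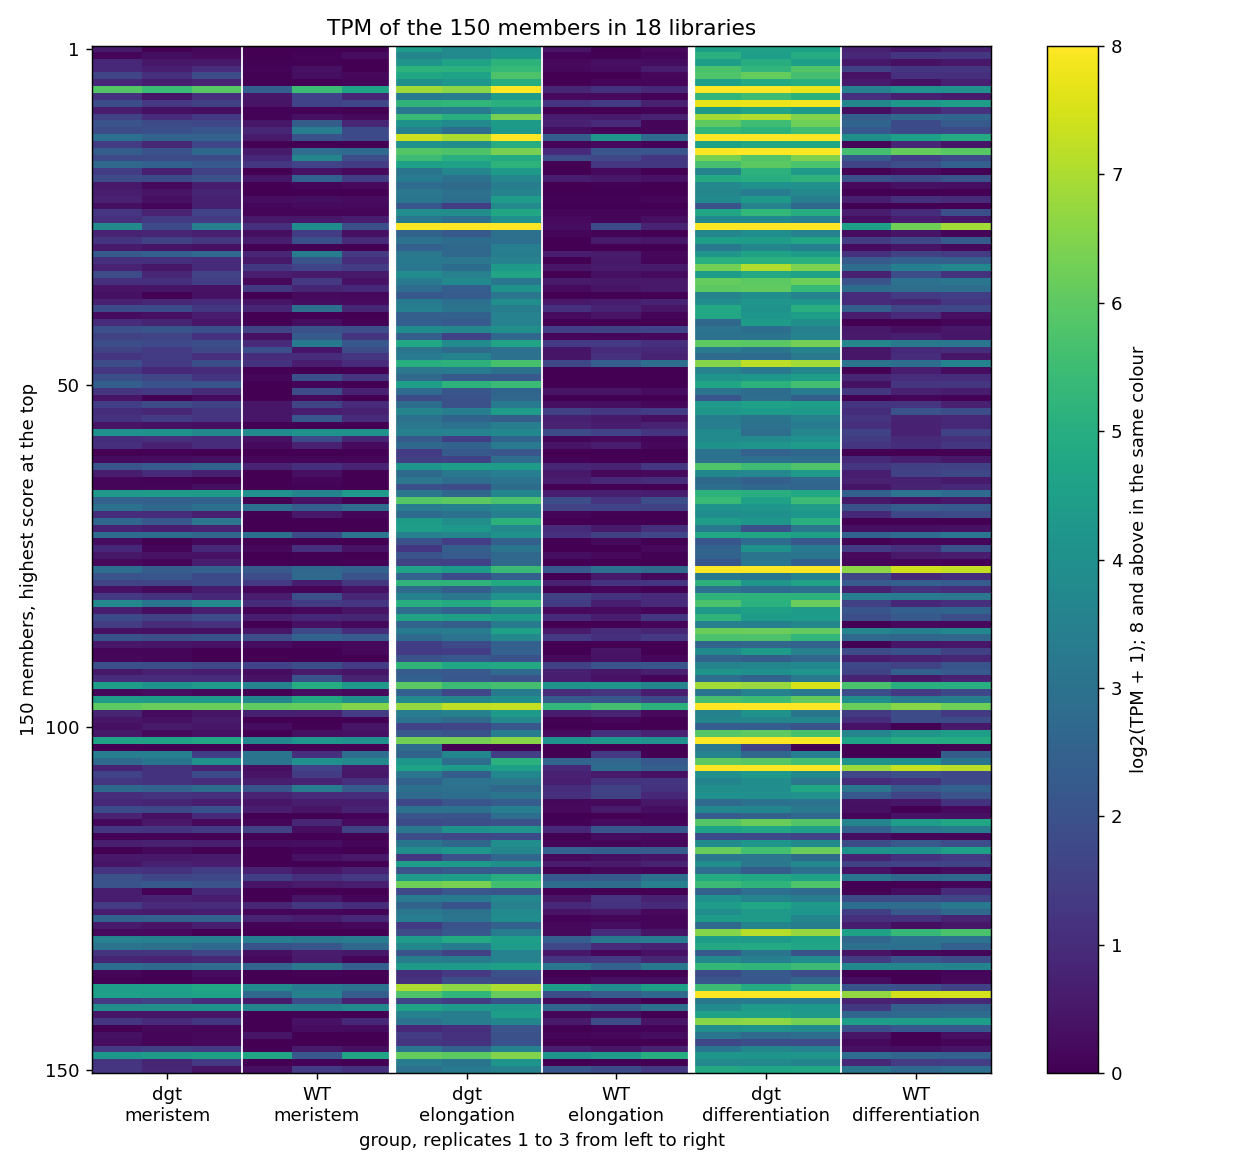
Heat map of log2(TPM + 1) for the 150 members (one line each, highest score at the top) in the 18 libraries, grouped by zone with *dgt* left of WT and replicates 1 to 3 from left to right. The *dgt* elongation and *dgt* differentiation columns are bright for nearly all members, with median mean levels of 8.99 and 17.4 TPM, while the WT elongation column is dark with 0.322 TPM.

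The rule bears on the order of the zones, which is given as a description. In *dgt* the meristem was the lowest zone for 145 members, and the differentiation zone the highest for 132. In WT the elongation zone was the lowest for 80 members and the meristem for 60. Among the 19888 genes above 2 TPM, 52.4% were lowest in the *dgt* meristem and 42.4% highest in the *dgt* differentiation zone, while in WT 46.0% were lowest in the meristem and 34.7% in the elongation zone. The exceptions in *dgt* were ARF5, CAB4 and LOC112941912, lowest in the elongation zone, and LOC101251390 and PDH, lowest in the differentiation zone.

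Every *dgt* library was above every WT library for 149 members in the elongation zone and for 149 in the differentiation zone, which follows from the choice of members. The same held for 41.0% and 27.9% of the 19888 genes. The exception in both zones was LOC112939970, which had 6.04, 0 and 0 TPM in the *dgt* elongation zone and 7.86, 2.14 and 0 TPM in the *dgt* differentiation zone. It was listed at 0 in all WT libraries and in the *dgt* meristem, and its place among the members rests on 3 libraries. In the meristem, 66 members had every *dgt* library above every WT library, against 30.9% of the 19888 genes. LOC109120910, LOC101256204 and LOC101254849 had every *dgt* meristem library below every WT one.

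With edgeR, a gene was called at an adjusted p under 0.05 and a fold over 2. Of the members, 146 of 146 tested were called higher in the *dgt* elongation zone (9.68% of 20079 genes tested) and 149 of 149 in the *dgt* differentiation zone (8.54% of 20547). In the meristem 103 members had enough reads to be tested. There, 33 were called higher, against 10.1% of 19926 genes, and 3 lower, against 2.72%, a count that was 1 or 2 in each of the other fits tried. The rule used all 3 contrasts, so nothing is read from these counts. The 33 included MT2, LeGLO2 and CER6, and the 3 lower ones were LOC109120910, LOC101256204 and LOC101254849. The added 1 shrinks differences among values below 1 TPM, and the mean was under 1 TPM for 68 members in the *dgt* meristem and for 91 in the WT meristem.

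One library stood apart in the meristem. WT meristem replicate 2, the deepest library, was the highest WT meristem library for 85 of the 137 members above 0 in that group, against 21.7% of the 19888 genes. Without it, L in the meristem had a median of 0.42 and was over 1 for 27 members, and 57 of 112 members tested were called higher, including cat1 and ASR1, against 12.5% of all genes tested. Without *dgt* meristem replicate 1, 21 of 103 were called higher, against 7.41%. The gene pcna, which encodes a clamp of the DNA replication machinery and marks dividing cells, had 352, 401 and 311 TPM in the *dgt* meristem and 353, 539 and 351 TPM in the WT meristem. Its means were 46.6 and 45.3 TPM in the *dgt* and WT elongation zones. Of 11 such marker genes of dividing cells, 10 were highest in the meristem in both genotypes. Between the genotypes in the meristem their median log2 fold change was -0.44, with none called higher and 1, ccs52B, called lower (-1.01 ± 0.15 SE, edgeR adjusted p = 0.0034), and the part of this in the members' values was not tested.

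**Figure D2:**
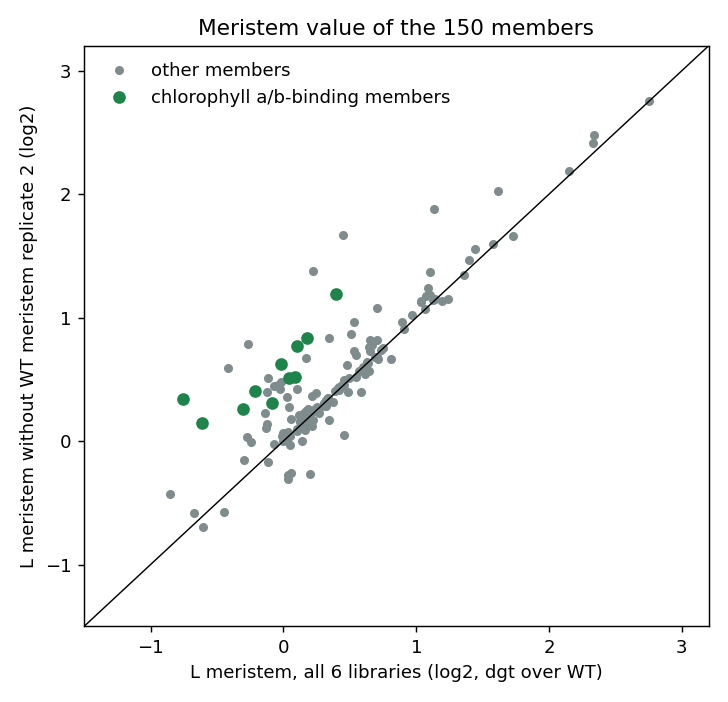
Each point is a member, with L in the meristem from all 6 libraries on the horizontal axis and L without WT meristem replicate 2 on the vertical axis, both as log2 of *dgt* over WT, and the line marks equal values. All CAB members, drawn in green, lie above the line, and the median of the 150 members is 0.26 with the library and 0.42 without it.

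For every CAB member, all *dgt* libraries of the elongation and differentiation zones were above all WT libraries of the same zone, which follows from the choice. CAB13 had 16.1, 12.8 and 19.7 TPM in the *dgt* elongation zone, against 0.66, 0.96 and 0.08 TPM in the WT elongation zone. In the differentiation zone it had 64.0, 45.2 and 73.7 TPM in *dgt* and 4.98, 2.51 and 3.76 TPM in WT, so that the lowest *dgt* library was far above the highest WT one. In the meristem it had 3.15, 2.53 and 2.29 TPM in *dgt* and 0.39, 4.12 and 0.82 TPM in WT, with WT replicate 2 above all *dgt* libraries. Without that library its L in the meristem was 1.19, against 0.40 with all libraries.

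CAB1B had the largest L of the family in the differentiation zone, 4.39, with 80.5, 55.3 and 86.5 TPM in *dgt* and 3.63, 1.72 and 2.37 TPM in WT. In the elongation zone it had 43.8, 31.4 and 28.7 TPM in *dgt* and 2.69, 2.30 and 1.40 TPM in WT. Its meristem values were 2.43, 2.58 and 2.64 TPM in *dgt* and 0.86, 11.4 and 2.74 TPM in WT, and its L there was -0.75 with all libraries and 0.34 without WT replicate 2. LOC101267774, which carries the synonyms CAB3A and CAB3B, was the most abundant, with 136 ± 38.8 TPM in the *dgt* differentiation zone and 38.0 ± 11.3 TPM in the WT differentiation zone (SD, n = 3). It was also well above 0 in the meristem, with 20.9, 16.1 and 18.9 TPM in *dgt* and 10.7, 29.9 and 19.0 TPM in WT. CAB4 resembled it there, with 20.0, 19.4 and 18.3 TPM in *dgt* and 11.7, 27.8 and 14.6 TPM in WT.

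The other CAB members, CAB9, CAB-8, CAB7, CAB11, CAB6A, Cab-1A and Cab-1D, had L between 1.85 and 3.22 in the elongation zone and between 2.19 and 3.12 in the differentiation zone. Over all 16 CAB genes the median L was 0.01, 2.00 and 2.21 in the meristem, elongation zone and differentiation zone. Without WT meristem replicate 2, 4 of the 11 CAB members (CAB13, CAB9, CAB-8 and Cab-1A) were called higher in the *dgt* meristem, against the 12.5% of all genes, and none with it. The rule used these libraries, so both counts are a description.

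Of the 5 CAB genes that the rule left out, CAB12 was too low to be tested. CAB5 missed the group narrowly, with a score of 1.3. By edgeR, CAB5 was higher in the *dgt* elongation zone (log2 fold change 2.78 ± 0.39 SE, adjusted p = 3.5e-04) and in the *dgt* differentiation zone (2.58 ± 0.31, adjusted p = 1.3e-04). LHCP was higher in both zones (1.09 ± 0.35, adjusted p = 0.037, and 1.58 ± 0.22, adjusted p = 3.1e-04), and CAB-10A in the differentiation zone (1.00 ± 0.17, adjusted p = 0.0011). Cab-3C passed in neither zone, with log2 fold changes of 0.97 ± 0.28 and 0.69 ± 0.27, and none of the 4 passed in the meristem. The rule ranked these genes on the same libraries and contrasts, so their values are a description too and support nothing. Expected counts were not whole in at least 1 library for 149 of the 150 members and for 91.6% of all genes with reads, because a read that fits several transcripts is divided among them, and the division among close copies such as the CAB genes is uncertain.

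**Figure D3:**
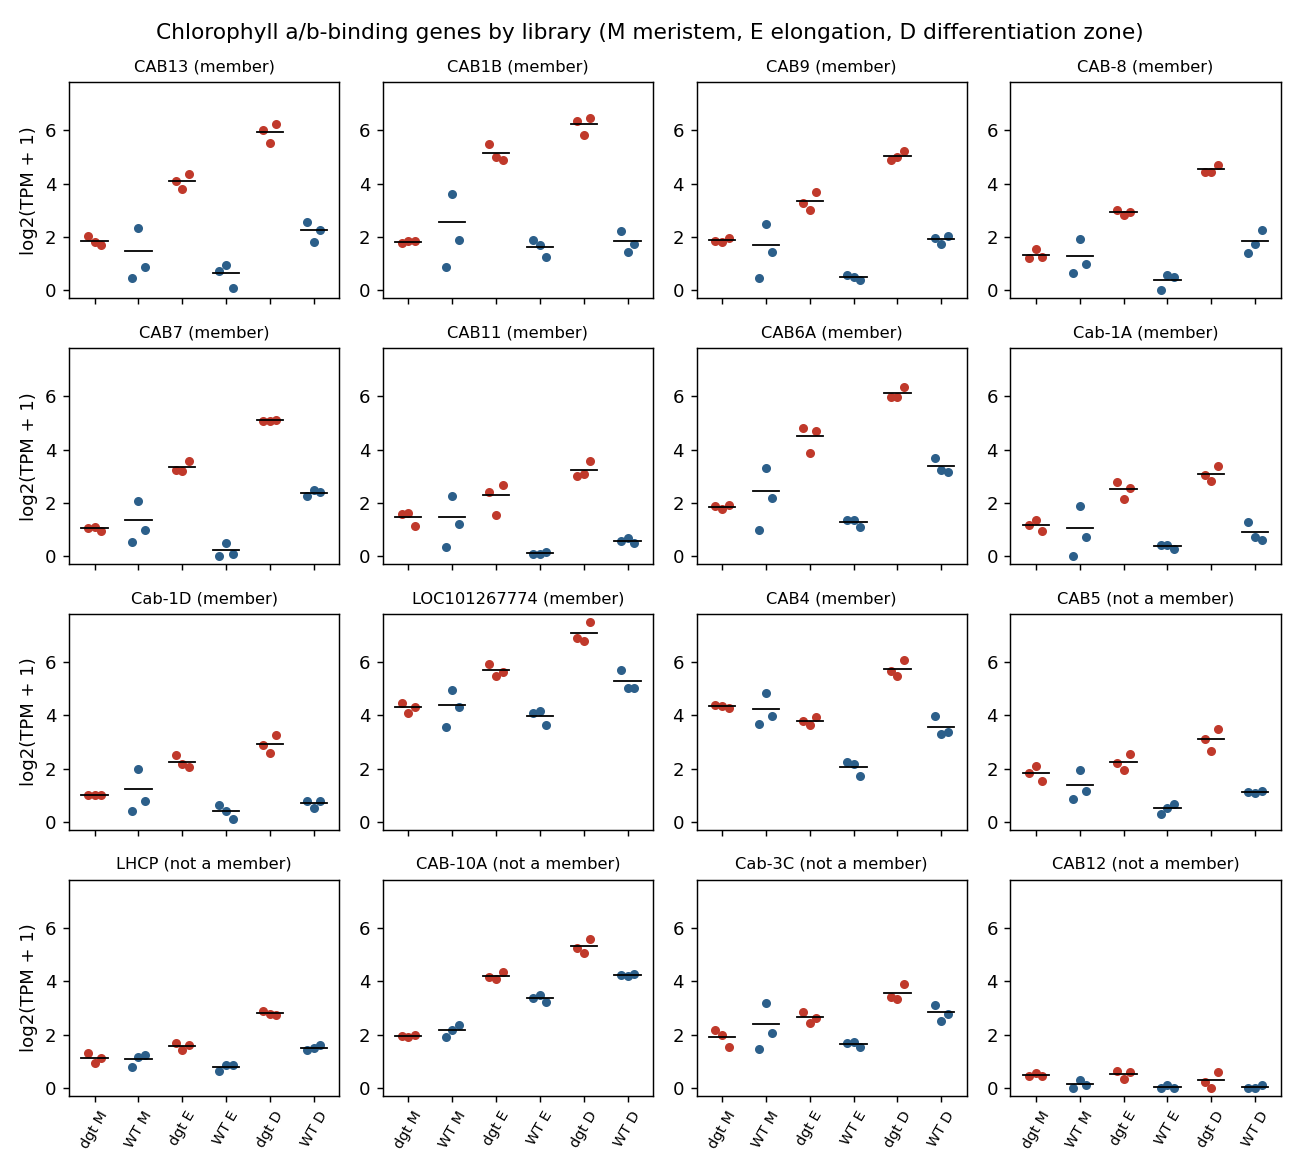
Points give log2(TPM + 1) of the 16 CAB genes in each library, *dgt* in red left of WT in blue for the meristem (M), elongation zone (E) and differentiation zone (D), and bars give the log2 of the group's mean TPM plus 1. In CAB13 and CAB1B the *dgt* libraries of the elongation and differentiation zones lie well above those of WT, and a single WT meristem library, replicate 2, stands out.

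Other genes of photosynthesis were mostly higher in *dgt* as well, though few fitted the rule. PSBP, a subunit at the water-splitting side of photosystem II, was the only member among the 7 photosystem genes measured, with 27.3, 25.2 and 26.9 TPM in the *dgt* differentiation zone and 7.68, 5.57 and 6.46 TPM in the WT differentiation zone. Of the 6 others, 5 were called higher in the elongation zone, 6 in the differentiation zone and 3 in the meristem, against the 9.68%, 8.54% and 10.1% given above for all genes. The 3 genes of the small subunit of Rubisco, the enzyme that fixes carbon dioxide, were called higher in the elongation and differentiation zones. None was called in the meristem, where their median log2 fold change was 1.42 and L was over 1 for 2 of the 3. rbcS1 had 11.8, 8.89 and 20.4 TPM in the *dgt* elongation zone and 0.49, 1.41 and 0.38 TPM in the WT elongation zone, a log2 fold change of 3.84 ± 0.45 (edgeR, adjusted p = 9.8e-05). PSBR, another photosystem II protein, was higher in the meristem too, with 25.9, 21.5 and 23.8 TPM in *dgt* and 1.19, 4.89 and 2.25 TPM in WT, a log2 fold change of 2.78 ± 0.51 (edgeR, adjusted p = 0.0076), and so was no member. The rule ranked all these genes on the same libraries and contrasts, so their values are a description and support nothing.

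The highest scores belonged mostly to genes with LOC identifiers. PSK4, a precursor of the growth peptide phytosulfokine, led with 19.9, 13.2 and 16.7 TPM in the *dgt* elongation zone and 0.33, 0 and 0.16 TPM in the WT elongation zone. In the differentiation zone PSK4 had 22.3, 22.7 and 22.1 TPM in *dgt* and 0.67, 0.36 and 0.64 TPM in WT, and in the meristem at most 0.48 TPM in any library. LOC101267150, named ABCG1 among its synonyms and so placed with the ABC transporters of subfamily G, had 28.1 ± 6.0 TPM in the *dgt* differentiation zone and 1.21 ± 0.289 TPM in the WT differentiation zone. LOC101262970, LOC101253972, LOC101259447, LOC101261154, LOC101255753 and LOC101246665 had L between 3.54 and 5.11 in the elongation zone and between 3.69 and 4.97 in the differentiation zone. Of these, LOC101259447 and LOC101246665 also had L over 1 in the meristem, 1.40 and 1.11, at mean levels of at most 1.98 TPM.

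SlFBA3, a fructose-bisphosphate aldolase, an enzyme of sugar breakdown and of carbon fixation, had 37.8, 45.1 and 34.3 TPM in the *dgt* differentiation zone and 1.12, 0.62 and 0.48 TPM in the WT differentiation zone. CHLN had 219.8 ± 12 TPM there in *dgt* and 17.1 ± 4.91 TPM in WT. In the meristem SlFBA3 had L of -0.14 and CHLN of 0.25. Neither differed between the genotypes there by more than the spread of the WT libraries.

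Genes against reactive oxygen were among the most abundant members. cat1, a catalase that breaks down hydrogen peroxide, had 116, 96.5 and 266 TPM in the *dgt* elongation zone and 0.83, 1.27 and 0.86 TPM in the WT elongation zone. In the differentiation zone cat1 had 308, 571 and 216 TPM in *dgt* and 10.2, 15.4 and 15.4 TPM in WT. In the meristem it had 57.1, 42.4 and 60.2 TPM in *dgt* and 4.19, 43.6 and 23.3 TPM in WT, where replicate 2 overlapped the *dgt* range. CAT2, the other catalase of the list and no member, was near equal in both genotypes, with an edgeR log2 fold change of -0.14 ± 0.16 in the elongation zone and 0.00 ± 0.14 in the differentiation zone.

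FESOD, an iron superoxide dismutase, had 404, 381 and 285 TPM in the *dgt* differentiation zone and 72.1, 95.0 and 74.7 TPM in the WT differentiation zone. Its meristem values, 63.5, 71.0 and 72.0 TPM in *dgt* and 65.2, 68.5 and 90.1 TPM in WT, overlapped at a high level. TMP1, an anionic peroxidase linked to suberin, had 11.6 ± 7.81 TPM in the *dgt* elongation zone and 0.0767 ± 0.0289 TPM in the WT elongation zone. Of 16 non-members on the same list of lignin, suberin and redox genes, 15 were tested, and 1 was called higher in each zone and 2 lower in the differentiation zone.

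The water-stress members were ASR1, Asr4 and the proline transporter ProT2. ASR1 and Asr4 belong to the small hydrophilic proteins induced by abscisic acid, stress and ripening, and they are neighbours on chromosome 4. ASR1 had 166, 127 and 299 TPM in the *dgt* elongation zone and 4.09, 17.0 and 5.70 TPM in the WT elongation zone. In the differentiation zone ASR1 had 437, 403 and 245 TPM in *dgt* and 14.7, 22.1 and 29.2 TPM in WT. Asr4 was lower in level but moved alike, with 10.0 ± 2.07 TPM in the *dgt* elongation zone and 0.767 ± 0.499 TPM in the WT elongation zone. The relatives Asr2 and ASR3, outside the group, had negative edgeR log2 fold changes in both zones, between -0.95 and -0.62, none of them past the fold of the call.

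Among 15 non-members of the water-stress list, 8 of 13 tested were called higher in the elongation zone, 5 of 14 in the differentiation zone and 6 of 14 in the meristem, against 9.68%, 8.54% and 10.1% of all genes. In the other direction, 1 was called lower in the meristem and 1 in the differentiation zone, where 4.47% of all genes tested were. TAS14, a dehydrin, was higher in all zones by edgeR log2 fold changes between 8.11 and 9.82 and so could be no member.

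The small heat shock proteins HSP17.8 and er-sHSP were the heat shock members, of 12 such genes measured. HSP17.8 had 307, 249.9 and 266 TPM in the *dgt* differentiation zone and 23.9, 30.2 and 29.9 TPM in the WT differentiation zone. Its meristem values were 23.2, 22.8 and 26.9 TPM in *dgt* and 12.2, 17.4 and 15.3 TPM in WT and did not overlap. er-sHSP, of the endoplasmic reticulum, had 26.7, 17.3 and 21.2 TPM in the *dgt* differentiation zone and 0.52, 0.93 and 0.25 TPM in the WT differentiation zone, and was listed at 0 in all WT meristem libraries. The list as a whole did not move one way: HSP90, the gene of that symbol, fell by 2.38 on the log2 scale in the elongation zone (SE 0.26, edgeR adjusted p = 5.8e-05). HSP21 and HSP70 were called higher in the elongation and differentiation zones. Of the non-members tested, 3 of 9 were called higher and 1 lower in the elongation zone. In the differentiation zone 3 of 10 were called higher and 1 lower. Of all genes tested in these zones, 9.68% and 8.54% were called higher and 4.32% and 4.47% lower. The rule ranked the non-members on these same contrasts, so their values are a description too.

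ARF5 was the only member among 74 auxin genes. It encodes an auxin response factor whose Arabidopsis counterpart, MONOPTEROS, is needed to form the embryonic root. ARF5 had 8.05, 5.39 and 11.5 TPM in the *dgt* elongation zone, against 0.60, 0.63 and 0.51 TPM in the WT elongation zone. In the differentiation zone it had 34.9, 32.0 and 26.8 TPM in *dgt* and 4.57, 7.33 and 6.02 TPM in WT. In the meristem it had 19.1, 19.9 and 19.4 TPM in *dgt* and 15.7, 11.1 and 18.6 TPM in WT, so that it was highest in the differentiation zone in *dgt* and in the meristem in WT.

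LOC101252194, which has the synonym ERF-H7 of the ethylene response factor family, was the only member among 81 ethylene genes, with 24.6, 22.2 and 19.7 TPM in the *dgt* elongation zone and 0.99, 0.52 and 1.48 TPM in the WT elongation zone. Lists of jasmonate and wound, gibberellin and cytokinin, defence, cell wall and transport genes, with 20, 25, 32, 39 and 34 genes measured, held no member. Of 47 ABCG transporters 4 were members, LOC101267150 and LOC101259396, LOC101251002 and LOC101249450, whose synonyms are ABCG25, ABCG42 and ABCG6.

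Further named members had varied roles. CER6, which lengthens fatty acids for wax, had 7.79, 11.9 and 10.7 TPM in the *dgt* differentiation zone and 0.29, 0.24 and 0.38 TPM in the WT differentiation zone. SlVPE4, a vacuolar processing enzyme, had 5.73, 4.32 and 7.90 TPM in the *dgt* elongation zone and 0.04, 0.08 and 0.04 TPM in the WT elongation zone. AI, a vacuolar acid invertase that splits sucrose, had L of 2.11 in the elongation zone and 1.94 in the differentiation zone. MIOX, which oxidises myo-inositol, had L of 1.73 and 1.99 there. TPS14, a terpene synthase, was listed at 0 in all 6 WT libraries of the elongation and differentiation zones. It had 3.42, 1.75 and 13.3 TPM in the *dgt* elongation zone. SIP had L of 1.98 and 2.01, and LeGLO2, with 4.05 and 4.54, had 2.33 in the meristem as well.

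The most abundant members were in the differentiation zone. MT2, a metallothionein that binds metal ions, had 1015, 1594 and 1016 TPM in the *dgt* differentiation zone and 103, 175 and 175 TPM in the WT differentiation zone. LOC101248516 had 409, 819.7 and 479 TPM there in *dgt* and 22.3, 76.4 and 117 TPM in WT. Its L in the elongation zone, 7.39, was the highest of all members, from 256, 297 and 514 TPM in *dgt* and 0.19, 2.44 and 0.75 TPM in WT. LOC101247632, LOC101267528 and LOC543896 had means of 517, 421 and 427 TPM in the *dgt* differentiation zone and of 139, 58.3 and 138 TPM in the WT differentiation zone.

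The differentiation and elongation zones were also compared within each genotype. The rule did not use this contrast but used the same values, favouring genes low in the WT elongation zone, so the comparison is not independent of it and is given as a description with no p. In *dgt*, 52 of 149 members were called higher in the differentiation than in the elongation zone and 4 lower, against 14.1% and 16.2% of 20882 genes tested. The members' median log2 fold change was 0.66. In WT, 62 of the 95 members with enough reads were called higher in the differentiation zone and 7 lower, against 16.6% and 15.8% of 19927 genes, with a median of 1.71. A member can pass the read filter through 1 zone alone, and with no filter 82 of 145 were called higher and 8 lower in WT. Over all genes without the filter, 3536 of 25766 were called higher and 3411 lower. The difference between the genotypes in these counts was not tested.

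MT2 had one of the largest changes, with log2 fold changes of 4.31 ± 0.26 in *dgt* and 4.80 ± 0.24 in WT (edgeR, SE). LOC101248761, LOC101251416 and LOC543896 had similar values in *dgt*, 4.31 ± 0.17, 4.27 ± 0.34 and 4.10 ± 0.15, and 6.84 ± 0.44, 5.81 ± 0.43 and 4.83 ± 0.44 in WT. In the WT elongation zone LOC101248761 had at most 0.17 TPM and LOC101251416 at most 1.01 TPM, so the size of their WT folds is uncertain. LOC101247996 and LOC101249450 were also among the highest in WT, where their elongation zone values were at most 0.05 TPM, so their fold is not given. In *dgt*, LOC101249450 had a log2 fold change of -0.06 ± 0.23.

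PDH, LOC101267002, LOC101243900 and LOC101258374 were the 4 members called lower in the differentiation zone of *dgt*. PDH had 17.3, 16.8 and 17.6 TPM in the *dgt* differentiation zone and 67.5, 62.8 and 87.9 TPM in the *dgt* elongation zone, a log2 fold change of -2.27 ± 0.14. In WT the same gene had -2.46 ± 0.24. LOC101253320 was lower in the WT differentiation zone, with 0, 0.01 and 0.09 TPM, than in the WT elongation zone, with 6.11, 6.06 and 10.3 TPM, while in *dgt* it had 43.1, 36.3 and 55.2 TPM in the differentiation zone and 73.8, 83.8 and 47.0 TPM in the elongation zone. The others called lower in WT were LOC101267002, LOC101246398, LOC101243900, PDH, CER6 and MIOX.

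Of the CAB members, 7 of 11 with enough reads in *dgt* and 6 of 8 in WT were called higher in the differentiation zone. Of all genes tested, 14.1% in *dgt* and 16.6% in WT were. CAB11, Cab-1A and Cab-1D had too few reads to be tested in WT. CAB7 had log2 fold changes of 1.67 ± 0.14 in *dgt* and 4.24 ± 0.55 in WT, where 0, 0.42 and 0.07 TPM in the elongation zone make the size uncertain. CAB1B was called in neither genotype, with 0.90 ± 0.21 in *dgt*, under the fold of 2, and -0.11 ± 0.41 in WT. ARF5 was called higher in the differentiation zone in both, with 1.71 ± 0.22 in *dgt* and 2.96 ± 0.22 in WT. HSP17.8 had 1.51 ± 0.12 in *dgt*, where it was called, and 0.34 ± 0.15 in WT, where it was not.

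**Figure D4:**
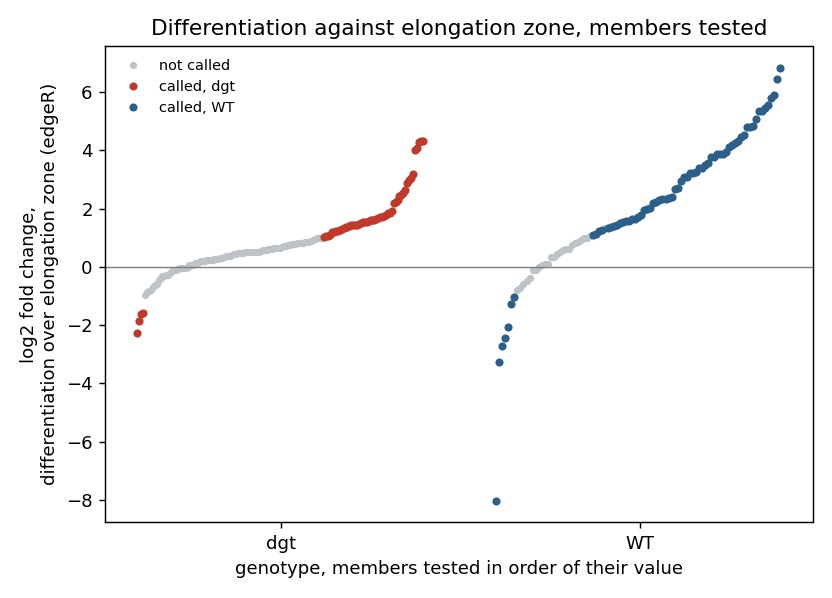
Each point is a member tested, placed by its edgeR log2 fold change of the differentiation over the elongation zone and sorted within *dgt* (left) and WT (right), with coloured points for those called. In *dgt* 52 of 149 members are called higher and 4 lower, and in WT 62 of 95 are called higher and 7 lower.

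Within the *dgt* elongation zone the libraries were uneven. Replicate 3 was the highest for 112 members, against 41.6% of the 19888 genes, and the members' median TPM was 7.98, 7.11 and 12 in replicates 1, 2 and 3. Without that library, 72 members were called higher in the *dgt* differentiation zone than in the *dgt* elongation zone and 5 lower, against 15.2% and 16.8% of all genes tested. Against the WT elongation zone, 145 of 146 members were called higher without it, where 8.62% of all genes were.

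Since the rule chose genes on all libraries, it was also applied to part of them and read in the rest. For each replicate number in turn, the 150 highest scores were taken on the other 2 numbers, and L was read in the left-out number. Between 129 and 131 of these genes were also members. In the left-out libraries their median L was 0.59, 0.23 and 0.37 in the meristem for numbers 1, 2 and 3. In the elongation zone it was 2.40, 2.10 and 2.98, and in the differentiation zone 2.51, 2.38 and 2.46. The whole pattern was L over 1 in the elongation and differentiation zones and within 1 of 0 in the meristem. It was present in 106, 120 and 112 of the 150, against 2.98%, 1.25% and 1.42% of all 29922 genes. That share includes genes at or below 2 TPM in every group, which the 19888 genes used above leave out. The number that holds WT meristem replicate 2 had the lowest meristem median. With 0.1 added in place of 1, 53, 71 and 71 genes showed the whole pattern, against 5.76%, 2.28% and 2.35% of all genes.

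**Figure D5:**
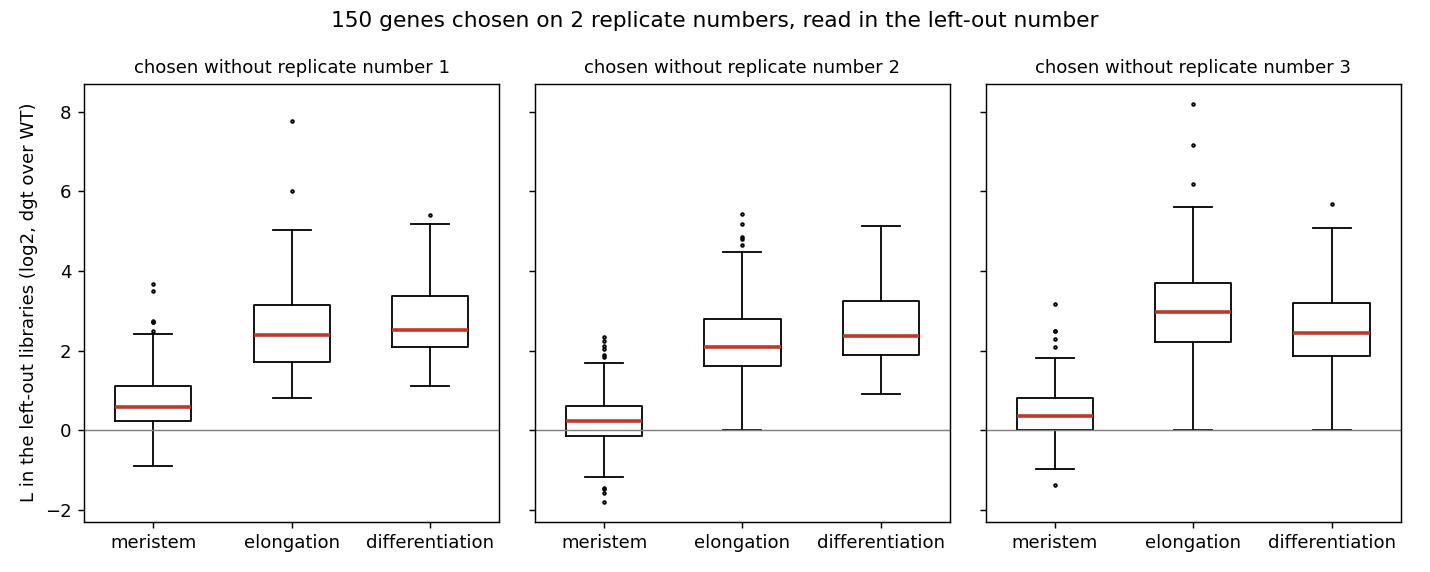
Box plots of L (log2, *dgt* over WT) in the left-out replicate number for 150 genes chosen on the other numbers, by zone, where the box spans the quartiles, the red line is the median, whiskers reach values within 1.5 times the box and dots lie beyond. Medians lie between 2.10 and 2.98 in the elongation and differentiation zones and between 0.23 and 0.59 in the meristem.

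The 150 genes chosen on 1 replicate number alone could be tested by edgeR in the libraries of the other 2, which had no part in the choice. Chosen on number 1, 134 of the 150 were called higher in the *dgt* elongation zone (143 had enough reads, and 8.25% of all genes tested were called) and 131 in the *dgt* differentiation zone (147 tested, 7.86%). Chosen on number 2, the counts were 135 (140 tested, 10.3%) and 143 (144 tested, 7.15%). Chosen on number 3, they were 138 (145 tested, 7.65%) and 147 (149 tested, 8.83%). In the meristem, 18 (111 tested, 4.73%), 65 (102 tested, 12.3%) and 11 (98 tested, 3.46%) were called higher, and the 65 came from the choice on number 2, tested without WT meristem replicate 2. These shares were above those of all genes in each choice. A gene that is very low in WT can pass the read filter through its *dgt* libraries alone. Once tested, such a gene is likely to be called higher, so the comparison of tested genes with all genes decides nothing. The counts out of 150 include the genes not tested, and they show how many of the chosen genes were called in the other libraries. Of the genes so chosen, 104, 106 and 119 were also members.

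Position and transcript models were not used by the rule. By the RefSeq annotation of assembly SLM_r2.1, to which 147 of the 150 could be matched, 25 lay on chromosome 6, or 17.0%, against 8.91% of the matched genes above 2 TPM. Chromosome 2 held 10.9%, against 10.6%, and chromosome 11 held 3.40%, against 6.56%. Cab-1A, Cab-1D and CAB1B stand side by side on chromosome 2, and ASR1 and Asr4 on chromosome 4, so that shared reads between neighbouring copies are possible there. The members' median transcript length was 1302 bases, against 1608 for the genes above 2 TPM. Only 15 of the members had more than 1 transcript model, or 10.0%, against 24.0% of all genes. In 13 of these 15 the leading transcript was the same in the *dgt* elongation and *dgt* differentiation zones, and in 9 of 15 it was the same in the *dgt* and WT differentiation zones. These are counts for genes chosen on their values and were not tested.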

How the data were processed

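Expected counts (estimated counts per gene, not normalized) and TPM were deposited by the authors, who ran RSEM on single-end reads against annotated transcripts of tomato (Heinz reference genome). The submitters' processing notes also name CASAVA 1.8.2. The percent of a gene's level given to each transcript was calculated by the authors with RSEM and was also deposited. These percent values did not set the leading transcripts. The leading transcript of a group was the one with the highest mean transcript TPM. The authors' EBSeq tables hold posterior probabilities and fold changes and were not used. Totals per library ran from 17919441 to 29133603, and members near 0 in WT rest on few reads. The many root portions pooled in a sample make it a mean over plants.

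Rounded expected counts went into edgeR 4.0.16 (R 4.3.3, glmQLFit and glmQLFTest, filterByExpr with minimum count 10 and total 15, TMM, prior count 0.125), per pair of groups on its 6 libraries, with Benjamini-Hochberg adjustment over all genes tested, two-sided. EBSeq, which the study used, was not run. L used TPM with 1 added. Python 3.11.15, numpy 2.4.6, pandas 2.3.3 and matplotlib 3.10.9 did the rest, and the fits were tested on simulated counts. Alternatives were DESeq2 1.42.0, upper-quartile scaling, no filter, a replicate block, other added values and each library left out.

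The members and gene lists were chosen with earlier results of these data known, and the lists were formed by symbol or synonym. Named members are the 12 highest scores, the 6 most abundant in the *dgt* elongation or differentiation zone, and those with a gene symbol and at least 5 TPM there. Also named are the 4 largest and smallest zone differences per genotype past the test, and the 3 on either side of the edge of the group. Others named were chosen after their values were seen. RefSeq names were found for 26934 of 29922 genes. In WT, same-numbered differentiation and elongation libraries deviated together in all 3 pairs (correlations 0.50, 0.19 and 0.17), so these numbers may be pairs. The labels only number the replicates. The counts and SEs given above for this comparison come from the fit without pairs, and counts with the number as a block are given below. Promoter motifs were not searched, since no sequence was used here.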

Additional observations from a re-analysis of the deposited data

How the results depend on the processing

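The group depends on how low values are treated. With 0.1 added to TPM in place of 1, 85 of the 150 members were kept, and with edgeR log2 fold changes in place of L, 83. Leaving out 1 library at a time kept 138 to 148. The whole pattern in the left-out replicate number was present in 53, 71 and 71 genes with 0.1 added (5.76%, 2.28% and 2.35% of all genes). With 1 added it was present in 106, 120 and 112 (2.98%, 1.25% and 1.42%). Members called higher in the meristem numbered 33, and 21 to 57 with 1 library left out. The count was lowest without *dgt* meristem replicate 1 (1494 of 20166 genes) and highest without WT meristem replicate 2 (2539 of 20336). Members called lower in the meristem numbered 3, and 1 to 2 with 1 library left out. Upper-quartile scaling gave 1, the block 1, and DESeq2 and no filter 2 each. Over all genes these other fits called 301 to 1515 lower. The cause of these changes was not tested. In the elongation and differentiation zones, leaving out 1 library gave 145 to 148 and 148 to 149 members called higher. Over all genes these fits called 1755 to 2222 and 1613 to 1895 higher. No filter gave 149 members in each (2161 of 26164 and 1981 of 26256 genes). For the differentiation against the elongation zone, leaving out 1 library gave 48 to 72 higher and 4 to 6 lower in *dgt*. In WT it gave 61 to 74 higher and 5 to 8 lower. Over all genes these fits called 2827 to 3223 higher and 3296 to 3561 lower in *dgt*. In WT they called 3146 to 3573 higher and 3091 to 3459 lower. With no filter, members numbered 54 and 4 in *dgt* (3233 and 3571 of 26521 genes) and 82 and 8 in WT (3536 and 3411 of 25766). Upper-quartile scaling moved the calls over all genes towards higher in that comparison, with 3745 higher and 2768 lower in *dgt* (2954 and 3374 with TMM) and 4253 and 2483 in WT (3317 and 3147), while members numbered 61 and 4 in *dgt* and 67 and 6 in WT.

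With the replicate number as a block, 26, 146 and 149 members were called higher in the *dgt* meristem, elongation and differentiation zones. Over all genes the block gave 1804 of 19926, 1985 of 20079 and 1761 of 20547 higher. For the differentiation against the elongation zone the block gave 55 higher and 4 lower in *dgt*, and 66 higher and 7 lower in WT. Over all genes it gave 2950 higher and 3338 lower of 20882 in *dgt*, and 3384 and 3179 of 19927 in WT. Only in the last comparison was every same-numbered pair's correlation over 0.1, so the numbers may pair the samples there. Libraries numbered 3 did not correlate best with their own number in it. In each of the other comparisons at least 1 pair was under 0.1 (correlations between -0.28 and 0.26), and not every library correlated best with its own number. The other 106 values compared with a main count stayed within 1.5 times of it, a comparison that cannot show a change of direction. For L and log2 fold changes of named genes, 148 values moved by more than the combined SD of the replicates. The other 1052 stayed within it or kept their call, and none changed sign. Depth limits the members near 0 in WT, where L is set by the added 1.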
